A study of Mus musculus with 12 samples.

Results

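Macroautophagy delivers cytoplasmic cargo to lysosomes inside a double membrane, the autophagosome. The 10 genes described here were chosen by name, with earlier results of these data known. They cover several steps of macroautophagy, but not membrane delivery or fusion with the lysosome. They comprise 5 members of the ATG8 family and 5 other core factors. The ATG8 family members Gabarap, Gabarapl1, Gabarapl2, Map1lc3a and Map1lc3b encode small ubiquitin-like proteins that are coupled to lipid on the growing membrane. Sqstm1 (p62) encodes a cargo receptor that binds ubiquitin and ATG8 proteins. Rb1cc1 (FIP200) encodes the scaffold of the ULK kinase complex, and Becn1 encodes a subunit of the class III PI3-kinase complex. Atg7 encodes the E1-like enzyme that activates ATG8 proteins and Atg12, and Atg5 encodes the protein to which Atg12 is joined. mTOR, the kinase inhibited in this experiment, restrains autophagy in fed cells by phosphorylating the ULK complex, and neurons depend on autophagy to clear protein aggregates and organelles. All 10 genes were found by symbol among the 20504 genes of the coding sequence (CDS) table and the 23352 genes of the exon table, and all 10 passed the filter of a mean of 37 counts per library in every comparison.

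In total, 6 Camk2a-RiboTag mice, adult and by the study's methods 3 months old, gave 12 brain libraries. In these mice a Camk2a-driven Cre recombinase switches on hemagglutinin-tagged Rpl22, a large-subunit ribosomal protein, so that tagged ribosomes come from Camk2a-expressing cells, mainly excitatory neurons of the forebrain. All 6 mice carried the tag, and the labels give no genotype without it. The study's methods name the right frontal lobe as the tissue taken from the gavaged mice, so brain here does not mean whole brain. They give no separate region for mice E and F. Mice A and B received Captisol vehicle by gavage and mice C and D a single oral dose of 100 mg/kg AZD-8055, which blocks the ATP site of mTOR, 1 h before tissue was taken. Each of these 4 mice gave a poly(A) RNA-Seq library and a ribosome profiling library from 1 homogenate, and the labels call mice A and B untreated. Mice E and F, also labelled untreated, each gave an RNA-Seq library of homogenate (input) and of hemagglutinin-immunoprecipitated polysomes (IP). Each group therefore held 2 mice, and each library came from homogenized tissue, in which fewer cells of a type and less RNA per cell cannot be told apart.

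Exon totals of the 4 RiboTag libraries lay between 19681269 and 27878212 counts. CDS totals lay between 9395385 and 10649939 for RNA-Seq of mice A to D and between 3503873 and 9259938 for footprints. Replicates differed by more than counting error in every group, by 2.61 to 17.4 times the chi-square value that counting alone gives. In the IP, 5 of 6 excitatory neuron markers rose, and 26 of 27 markers of inhibitory neurons, glia and endothelium fell. The summed level of these 27 markers was 6014 and 5765 CPM (here exon counts per 1000000 of the library) in input and 741 and 709.9 CPM in IP, and none was at 0 in any library. The part of other cell types in the values of the 10 genes was not tested. As a check of the drug, 67 of 70 cytosolic ribosomal protein genes, whose translation depends on mTOR, fell in translation efficiency, with a median of −0.93 on the log2 scale.

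By the RefSeq annotation of GRCm38.p6, Gabarap lies on chromosome 11 (chr11:69991370-69994949), Gabarapl1 on chromosome 6 (chr6:129533192-129542331) and Gabarapl2 on chromosome 8 (chr8:111940703-111952915). Map1lc3a, the gene with the shortest span of the 10, lies at chr2:155276364-155278073 and Map1lc3b at chr8:121590438-121598760. Sqstm1 lies at chr11:50200152-50210820, Becn1 at chr11:101288258-101302286 and Rb1cc1 at chr1:6214634-6276375. Atg5 lies at chr10:44268322-44364299 and Atg7 at chr6:114643127-114860604. Of these 10 genes, 4 overlap no other annotated gene. Becn1 shares 444 bases at one end with Cntd1 and Map1lc3b shares 64 bases with Zcchc14, both protein-coding genes. Gabarapl1 and Rb1cc1 overlap long noncoding RNA genes, and Atg5 and Atg7 overlap pseudogenes among others. Whether counting used strand is not given in the sources used here, so reads from overlapped stretches are uncertain.

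When mTOR is inhibited, the transcription factors TFEB and TFE3 can enter the nucleus and bind E-box elements with the core CACGTG at autophagy and lysosome genes. RefSeq promoter windows, from 250 bases before to 50 after an annotated start, were at hand for 7 of the 10 genes and not for Map1lc3a, Becn1 or Rb1cc1. The palindromic word CACGTG, which reads the same on both strands, was present in 2 of these 7 windows, those of Atg7 and Atg5, and in 7.15% of all 32851 windows. These 2 stretches are shown because they hold the word, and a part of the word in RNA changes after AZD-8055 was not tested. Each is read 5′ to 3′ on the plus strand of GRCm38.p6 with the word in capitals.
Atg7, chr6:114670952-114670981: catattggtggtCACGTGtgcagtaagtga
Atg5, chr10:44268309-44268338: agggcggagcgcttgcCACGTGgtcttggt
The word begins 132 bases before the annotated start used for Atg7 and 14 bases before that of Atg5. The Atg7 stretch lies wholly inside the annotated span of its gene, far downstream of the 5′ end at chr6:114643127, so that the start used is an internal one. The Atg5 stretch lies in part inside the span of its gene, which begins at chr10:44268322. A match of 6 letters is a description of the sequence and no evidence of binding. The RNA of both genes after the drug is given with the other drug values.

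The RiboTag IP asks which mRNAs are over- or under-represented on the tagged ribosomes relative to the homogenized tissue. Of the 10 genes, 7 rose in IP over input, Rb1cc1 fell, and Map1lc3b and Becn1 did not pass the test. Among all 13254 genes tested, 33.7% were called higher and 35.7% lower by the same rule (edgeR's quasi-likelihood test on exon counts, Benjamini-Hochberg adjusted p under 0.05). The median log2 change was 0.76 over the 10 genes and −0.03 over all genes tested. With the added limit of a fold over 2, Map1lc3a and Gabarapl1 stayed called higher, against 11.7% of all genes, and none of the 10 was called lower, against 21.8% of all genes. Counts below were divided by median-ratio size factors, whereas fold changes come from the edgeR fit, scaled by the trimmed mean (TMM) of the filtered genes, so that a fitted change differs slightly from the ratio of the counts.

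Within the ATG8 family, the 2 LC3 genes stood farthest apart. Map1lc3a had 2570 and 2441 normalized exon counts in the inputs of mice E and F and 8807 and 8819.6 in their IPs. The IP libraries lay far above the inputs in both mice, by 3.24-fold (log2 change 1.70 ± 0.09, SE, adjusted p = 6.1e-05), a value at the 98.9th percentile of all genes tested. Map1lc3b, its close paralog, had 3798 and 3918 normalized exon counts in input and 4923 and 4793 in IP. Its IP values exceeded the inputs by a small step, and its log2 change of 0.22 ± 0.08 (95% interval 0.01 to 0.42) missed the threshold (adjusted p = 0.058). With the mouse as a block, which the design allows because input and IP came from the same animal, the change of Map1lc3b was 0.22 with an adjusted p of 0.0028, which passed. With only 2 mice, this paired fit has very little data per gene to estimate the spread. Its p-value therefore leans on the spread shared by all genes. In log2 enrichment, Map1lc3a exceeded Map1lc3b by 1.40 in mouse E and 1.56 in mouse F.

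The GABARAP genes rose together in the IP, and Gabarapl1 rose most. Gabarapl1 had 9972 and 10288 normalized exon counts in input and 27963 and 24824 in IP. That made it 2.40-fold higher (log2 change 1.26 ± 0.09, adjusted p = 0.00011). Gabarapl2 had 2254 and 2586 in input and 4836 and 4930.3 in IP, a log2 change of 0.90 ± 0.10 (adjusted p = 0.00044). Gabarap had 1829.7 and 1905 in input and 3342 and 3330.3 in IP, a log2 change of 0.72 ± 0.09 (adjusted p = 0.00055). For each of these genes, the 2 mice differed little beside the step between input and IP.

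Among the other core factors, the genes for cargo binding and conjugation rose, Becn1 moved little and Rb1cc1 fell. Sqstm1 had 7282 and 7238 normalized exon counts in input and 14679 and 13475 in IP (log2 change 0.84 ± 0.09, adjusted p = 0.00031). Atg5 rose from 427.0 and 430.8 to 818 and 802 (log2 change 0.80 ± 0.10, adjusted p = 0.00067). Both mice gave nearly the same values for these genes. Atg7 had 675 and 679 in input and 1021 and 1279.5 in IP (log2 change 0.65 ± 0.13, adjusted p = 0.0053), with the widest gap between mice of the 10 genes. Becn1 had 1872 and 1908 in input and 2331 and 2118 in IP, and its log2 change of 0.12 ± 0.09 (95% interval −0.11 to 0.35) did not pass (adjusted p = 0.30). Rb1cc1 was the only one of the 10 that was lower in IP, with 2259 and 2742 in input and 1409 and 1606 in IP, a 1.80-fold decrease (log2 change −0.85 ± 0.13, adjusted p = 0.0015).

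**Figure D1:**
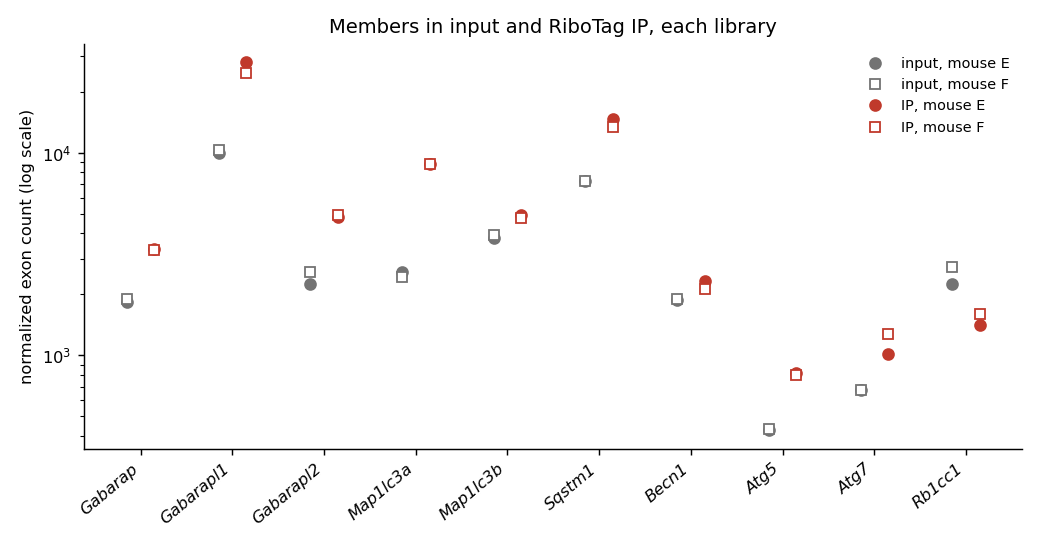
Normalized exon counts (vertical axis, log scale) of the 10 genes in input and IP, with 1 point per library and mice E and F as filled circles and open squares. The IP points lie above the input points for 9 genes and below them for Rb1cc1, and the step is smallest for Becn1 and Map1lc3b.

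Ordered by mean log2 enrichment over mice E and F, Map1lc3a came first with 1.81 ± 0.05 (SD, n = 2), followed by Gabarapl1 with 1.38 ± 0.15 and Gabarapl2 with 1.02 ± 0.12. Neither of the first 2 steps overlapped between mice. Gabarapl2, Sqstm1 (0.95 ± 0.08) and Atg5 (0.92 ± 0.03) followed with values of neighbours that overlapped. Gabarap (0.84 ± 0.04) lay just under Atg5 without overlap, and overlapped with Atg7 (0.76 ± 0.22). Map1lc3b (0.33 ± 0.06) and Becn1 (0.23 ± 0.12) formed an overlapping pair below them, and Rb1cc1 stood apart at −0.73 ± 0.06.

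Part of this order depended on which reads were counted. Exon counts include the untranslated regions and CDS counts do not. The ratio of exon to CDS counts had a median over genes of 1.51 and 1.53 in the inputs and of 1.90 and 2.04 in the IPs, and it rose for every member in both mice, by very little for Becn1. Gabarapl1 had ratios of 3.48 and 3.71 in input and 4.87 and 5.40 in IP. Map1lc3b had ratios of 3.27 and 3.42 in input and 4.07 and 4.48 in IP. Rb1cc1, the member that fell, had ratios of 1.27 and 1.32 in input and 1.74 and 2.07 in IP. Becn1 had almost no exon counts outside its CDS, with ratios between 1.01 and 1.03 in all 8 RNA-Seq libraries. Its annotated overlap with Cntd1 is given above, and its part in this ratio was not tested. On CDS counts every call of the exon fit was kept, and Becn1 and Map1lc3b were called higher as well. Rb1cc1 had a log2 change of −0.94. The median over all genes was −0.07 in that fit. The shares of all genes called in it are not given here, so these calls describe the members only. Becn1 then gave a log2 change of 0.56 (adjusted p = 0.0015) and Map1lc3b of 0.32 (adjusted p = 0.029). The difference between Gabarapl1 and Gabarapl2 in log2 enrichment, 0.39 and 0.34 in mice E and F on exon counts, was 0.003 and −0.03 on CDS counts, whereas Map1lc3a still exceeded Map1lc3b by 1.64 and 1.73.

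**Figure D2:**
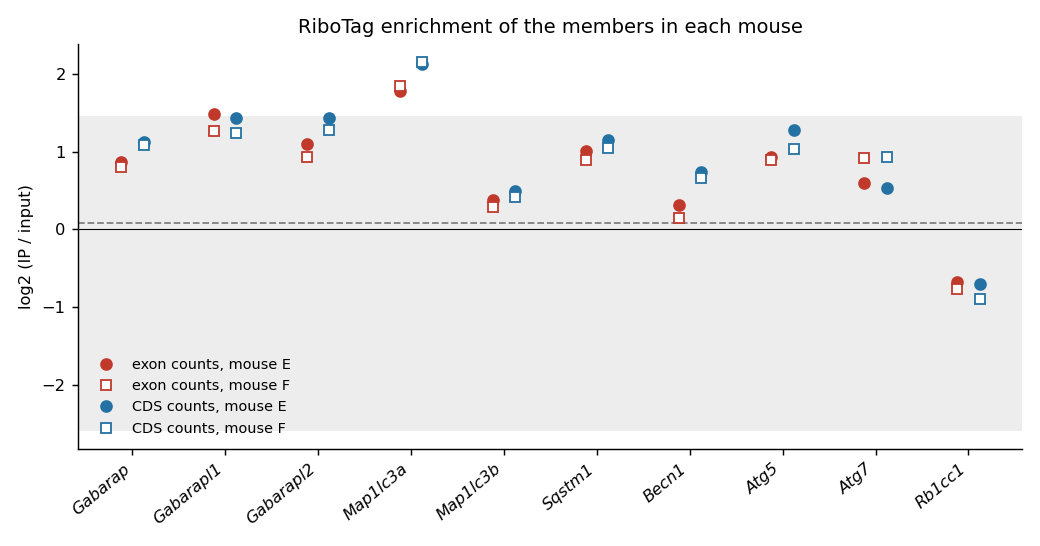
Log2 ratio of IP to input (vertical axis) for each gene in mice E and F, from exon counts and from CDS counts. The grey band spans the 5th to 95th percentile (−2.59 to 1.44) and the dashed line the median (0.08) of all 13254 genes tested on exon counts, and only Map1lc3a lies above the band in both mice.

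Scaling also mattered for the smallest values. Scaling to total counts moved the median log2 change of all genes from −0.03 to −0.31. Under it Map1lc3b had −0.06 and Becn1 −0.16, so that their directions flipped, neither passing the test. Relative to the median of all genes in the main fit, Map1lc3b stood at 0.25 and Becn1 at 0.15. Atg7 lost its call under the same scaling (log2 change 0.37, adjusted p = 0.0505).

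Translation efficiency (TE) is the ratio of ribosome footprints to mRNA on the CDS, and it describes how densely the transcripts of a gene were occupied by ribosomes. In the vehicle-treated mice, 8 of the 10 genes had a TE above that of the average gene, Becn1 had one far below it, and Atg7 did not pass the test. Among all 11797 genes tested, 36.5% were called higher and 37.3% lower (edgeR, footprint against RNA in mice A and B, in a fit of all 8 libraries). The median fitted log2 TE was 0.58 over the 10 genes and −0.01 over all genes. TE is relative here, since each library was scaled to the bulk of its genes. The 5 ATG8 genes together held 821 and 779 CPM of CDS counts in RNA-Seq of mice A and B and 1473 and 1491 CPM in footprints. In mice C and D the same sums were 807 and 803 in RNA-Seq and 1404 and 1396 in footprints.

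All 5 ATG8 genes had more normalized footprint counts than RNA counts in each of the 4 mice. Map1lc3b had 703 and 671 normalized RNA counts in mice A and B and 1639.5 and 1491 normalized footprint counts, a fitted log2 TE of 1.23 ± 0.07 (SE, adjusted p = 5.5e-10). Gabarapl1 had 1986 and 1898 against 4427 and 4208, a log2 TE of 1.20 ± 0.06 (adjusted p = 1.5e-10). Gabarapl2 had 1057 and 977 against 2148 and 2095, a log2 TE of 1.10 ± 0.07 (adjusted p = 1.2e-09). These 3 genes had TEs at the 89.1st to 91.5th percentile of all genes tested. Gabarap followed with 828 and 699.6 RNA counts and 1331 and 1337 footprint counts (log2 TE 0.85 ± 0.08, adjusted p = 1.2e-07). Map1lc3a was the lowest of the family, with 1135 and 1042 RNA counts and 1639.5 and 1476 footprint counts (log2 TE 0.56 ± 0.08, adjusted p = 5.9e-06). The LC3 paralogs thus stood in opposite order in TE and in IP enrichment. Per mouse, the log2 TE of Map1lc3a minus that of Map1lc3b was −0.69 and −0.65 in mice A and B and −0.87 and −0.62 in mice C and D. In RNA-Seq of mice A and B, the exon to CDS ratio was 3.45 and 3.43 for Map1lc3b and 3.73 and 3.78 for Gabarapl1. The median over genes was 1.57 in both mice. CDS counts of RNA enter both this ratio and TE, and its part in the high TEs was not tested.

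Becn1 was the exception among the 10 genes. It had 1116 and 1063 normalized RNA counts but 336 and 317 normalized footprint counts in mice A and B, from 410 and 203 raw footprint counts. Its fitted TE was 3.23-fold below that of the average gene (log2 TE −1.69 ± 0.08, adjusted p = 2.3e-11), at the 7.27th percentile of all genes. In mice C and D its normalized counts were 1148 and 1097 in RNA and 363 and 349 in footprints, again with footprints far below RNA. CDS counts of RNA enter both this TE and the exon to CDS ratio of Becn1 near 1, and the part of annotation or counting in the low TE was not tested.

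The remaining factors lay closer to the average gene. Sqstm1, with 4021 and 3667 RNA and 4782 and 4635 footprint counts, had a log2 TE of 0.34 ± 0.06 (adjusted p = 0.00018). Rb1cc1 had 1065 and 1012 RNA counts and 1286 and 1161.5 footprint counts (log2 TE 0.28 ± 0.08, adjusted p = 0.0031), and it lost its call without mouse A (adjusted p = 0.069). Atg5 had the thinnest data, with 156 and 128 normalized RNA counts and 198 and 227 footprint counts. Its log2 TE of 0.61 ± 0.15 (adjusted p = 0.0016) fell to 0.36 without mouse B (adjusted p = 0.12). Atg7 had 252.5 and 249.6 RNA counts against 233 and 234.5 footprint counts, and its log2 TE of −0.07 (95% interval −0.29 to 0.16) did not pass the test (adjusted p = 0.59).

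Ordered by mean log2 TE in mice A and B, Map1lc3b (1.19 ± 0.05, SD, n = 2) and Gabarapl1 (1.15 ± 0.01) overlapped at the top. Gabarapl2 (1.06 ± 0.06) lay below them without overlap. Gabarap (0.81 ± 0.18), Atg5 (0.58 ± 0.34) and Map1lc3a (0.52 ± 0.02) overlapped as neighbours, as did Sqstm1 (0.29 ± 0.06) and Rb1cc1 (0.24 ± 0.05). Atg7 at −0.10 ± 0.02 and Becn1 at −1.74 ± 0.01 each stood apart from the gene before it.

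**Figure D3:**
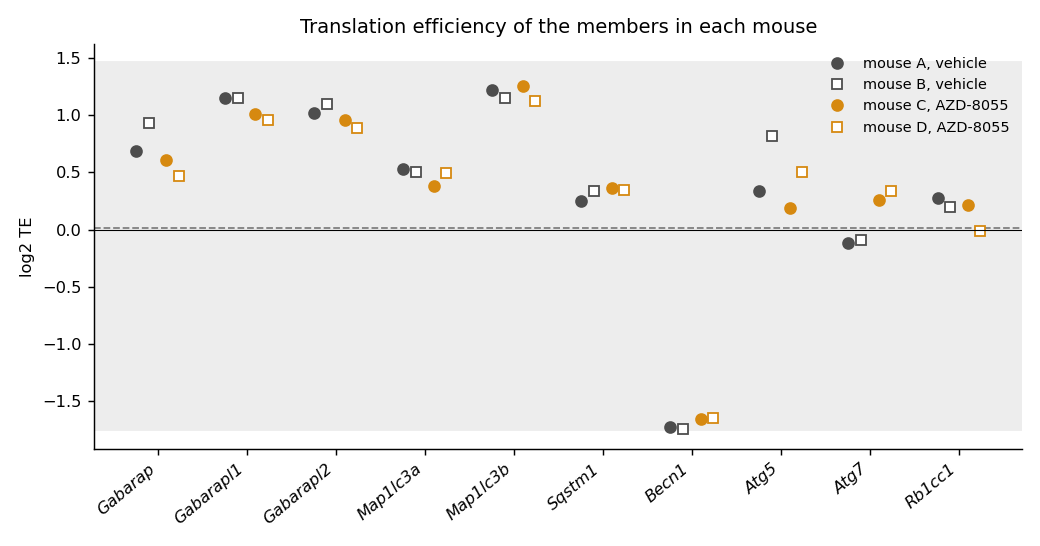
Log2 TE (vertical axis) of the 10 genes in each of the 4 mice, vehicle in grey and AZD-8055 in orange. The grey band spans the 5th to 95th percentile (−1.76 to 1.46) and the dashed line the median (0.02) of the mean of mice A and B over 10882 genes with at least 75 summed counts of each kind, and Becn1 lies near the lower edge in all 4 mice.

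The comparison of mice C and D with mice A and B asks which genes changed 1 h after mTOR inhibition. None of the 10 genes passed the test in RNA, footprints or TE. Over all genes, the called shares were 0.148% for RNA, 1.03% for footprints and 0.865% for TE (edgeR, either direction), and the count of 0 among 10 genes is to be read against these shares. At an unadjusted p under 0.05 there were 0 of the 10 genes in RNA, 2 in footprints and 2 in TE, in both cases Gabarap and Atg7, against 8.24%, 12.8% and 6.75% of all genes tested. DESeq2 called none of them either, with 0, 1 and 0 at an unadjusted p under 0.05. The median log2 TE change was −0.10 over the 10 genes and −0.01 over all genes.

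In RNA, every log2 change of the 10 genes lay between −0.11 and 0.06. The widest 95% interval was that of Atg5, from −0.41 to 0.19, and the intervals of the 5 ATG8 genes all lay between −0.21 and 0.21. Atg5 and Atg7, whose windows held the CACGTG word among the 7 windows at hand, had RNA changes of −0.11 ± 0.14 and −0.07 ± 0.10 (SE, adjusted p = 0.88 and 0.90). Atg7 had 248 and 237 normalized RNA counts in mice C and D, just under the 252.5 and 249.6 of mice A and B. Atg5 had 142 and 125.5 after the drug, within or just below its 156 and 128 in vehicle.

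Gabarap and Atg7 had the smallest unadjusted p-values in footprints and TE, in opposite directions. Gabarap had 1331 and 1337 normalized footprint counts in vehicle and 1158 and 1044 after the drug. Its log2 footprint change was −0.28 ± 0.08 (95% interval −0.46 to −0.10, adjusted p = 0.19), and its TE change was −0.26 ± 0.12 (interval −0.51 to −0.02, adjusted p = 0.70). Atg7 had 233 and 234.5 normalized footprint counts in vehicle and 297 and 299.6 after the drug. Its footprint change was 0.36 ± 0.12 (interval 0.09 to 0.63, adjusted p = 0.28), and its TE change was 0.41 ± 0.15 (interval 0.09 to 0.74, adjusted p = 0.52). Neither gene passed in footprints or TE once p-values were adjusted over all genes. Atg5 had a footprint change of similar size to that of Gabarap with a wider error (−0.29 ± 0.16, interval −0.65 to 0.07, adjusted p = 0.47), from 198 and 227 normalized footprint counts in vehicle and 162 and 178 after the drug.

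The TEs of the other members moved less. Gabarapl1 had log2 TEs of 1.16 and 1.15 in mice A and B and 1.01 and 0.96 in mice C and D, a fitted change of −0.16 (interval −0.36 to 0.03). Gabarapl2 had 1.02 and 1.10 in vehicle and 0.96 and 0.89 after the drug, a change of −0.14 (interval −0.35 to 0.08). Both GABARAP-like genes thus had lower TEs in both drug mice, within intervals that include 0. Map1lc3b stayed within its own spread, with 1.22 and 1.15 in vehicle and 1.26 and 1.12 after the drug (change 0.00, interval −0.23 to 0.23). Sqstm1, whose protein is itself consumed by autophagy, had a TE change of 0.06 (interval −0.13 to 0.26). Becn1 had −1.73 and −1.74 in vehicle and −1.66 and −1.65 after the drug, a change of 0.08 (interval −0.16 to 0.33), so that its low TE was much the same in all 4 mice. Map1lc3a (−0.07, interval −0.30 to 0.16), Rb1cc1 (−0.14, interval −0.37 to 0.09) and Atg5 (−0.20, interval −0.66 to 0.27) complete the list. Vehicle and drug mice did not overlap in log2 TE for 7 of the 10 genes, 4 lower and 3 higher after the drug, against 37.2% of all genes. With 2 mice per group an exact permutation test of a single gene cannot go below p = 0.33.

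**Figure D4:**
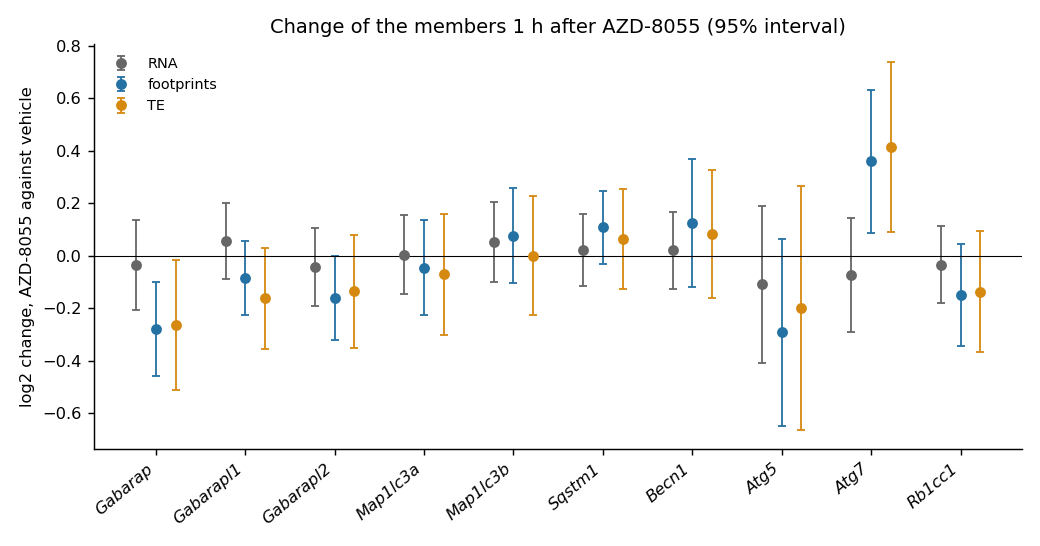
Log2 change between AZD-8055 and vehicle (vertical axis) of the 10 genes in RNA, footprints and TE, with 95% intervals from the edgeR fits. RNA intervals all include 0, and the footprint and TE intervals exclude 0 for Gabarap and Atg7 alone, before adjustment over all genes.

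A list of 50 other autophagy genes, grouped by role, was set beside the 10. In IP over input 18 of the 50 were called higher (36%, against 33.7% of all genes) and 15 lower (30%, against 35.7%), with a median log2 change of −0.03, equal to that of all genes at 2 decimals. The genes of autophagosome fusion and the lysosome included no riser and 6 that fell among 8. Lamp2, a lysosomal membrane protein, had −1.68 ± 0.12 (adjusted p = 0.00010), and Vamp8, a SNARE of the fusion step, had −1.38 ± 0.30 (adjusted p = 0.0064). Tfeb, the transcription factor named above, had −1.59 ± 0.29 (adjusted p = 0.0032), while its relative Tfe3 was called higher at 0.53. Vamp8 and Tfeb had thin data. In the IPs of mice E and F, Vamp8 had 27 and 16 CDS counts and Tfeb 25 and 35. Per mouse, the log2 enrichment was −0.96 and −1.63 for Vamp8 and −1.99 and −1.07 for Tfeb. The largest rises were those of Atg101, listed under an older symbol, at 1.67 ± 0.13 (adjusted p = 0.00012), Nrbf2 at 1.09 ± 0.10 (adjusted p = 0.00022) and Atg10 at 1.08 ± 0.19 (adjusted p = 0.0025). Atg101 is a subunit of the ULK complex, Nrbf2 of the PI3-kinase complex, and Atg10 is the E2-like enzyme that joins Atg12 to Atg5. Of the 8 conjugation and processing genes, 4 rose and 1 fell. Of the 4 ULK complex genes, to which Rb1cc1 belongs, 2 rose, none fell and 2 did not pass.

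In baseline TE, 22 of 49 tested genes of the list were called higher (44.9%, against 36.5% of all genes) and 16 lower (32.7%, against 37.3%), with a median of 0.11. The role groups below hold few genes each and are given as counts. Receptors of cargo had 7 of 10 higher and 1 lower, and the ULK complex none higher and 3 of 4 lower. The largest values were those of the mitophagy receptors Bnip3 (1.60 ± 0.08, adjusted p = 4.5e-11) and Fundc1 (1.41 ± 0.11, adjusted p = 1.8e-08) and of Lamp2 (1.54 ± 0.09, adjusted p = 2.7e-10). The lowest were those of Atg4d, a protease that processes ATG8 proteins (−2.14 ± 0.14, adjusted p = 2.1e-09), the lipid transfer protein Atg2a (−1.58 ± 0.09, adjusted p = 4.1e-10) and the kinase Ulk2 (−1.28 ± 0.10, adjusted p = 1.2e-08). Becn1, at −1.69, lay between Atg4d and Atg2a. Of the 7 other genes of the PI3-kinase group, to which Becn1 belongs, 3 were called higher, 2 lower, and 2 did not pass.

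After AZD-8055, none of the 50 genes was called in RNA and none of the 48 tested was called in footprints by edgeR, with 6 and 9 at an unadjusted p under 0.05 (12% and 18.8%, against 8.24% and 12.8% of all genes). In TE, 1 of 49 was called (2.04%, against 0.865% of all genes in either direction). Wdfy3, a large adaptor protein for aggregates, had a TE change of 0.57 ± 0.12 (adjusted p = 0.030), and its call was lost without mouse B, C or D (log2 changes 0.42, 0.64 and 0.50, adjusted p between 0.13 and 0.53). Tfeb and Tfe3 were not called in any of the 3 tests.

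**Figure D5:**
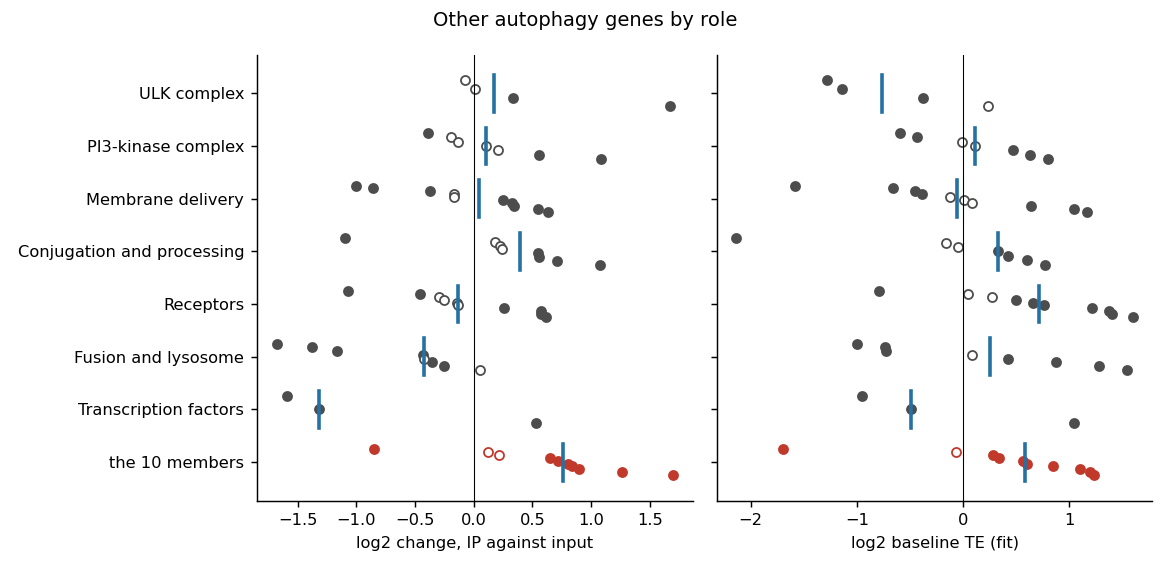
Log2 change in IP over input (left) and fitted log2 baseline TE (right) of the other autophagy genes by role and of the 10 genes at the bottom, with 1 point per gene, filled where the adjusted p is under 0.05, and a blue bar at each median. The 10 genes have medians of 0.76 and 0.58, and the fusion and lysosome genes have medians of −0.43 and 0.25.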

How the data were processed

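RNA-Seq and ligation-free ribosome profiling were carried out on mouse brain. The authors deposited 2 tables of raw read counts per gene. One counts CDS reads in 12 libraries, and the other counts exon reads in the 8 RNA-Seq libraries. Per the submitters' processing notes and the study's methods, footprint reads were trimmed, clipped of poly(A) and freed of rRNA with Bowtie2, and reads were aligned to mm10 with TopHat2. HTSeq then counted them by strict intersection. Versions are not given in the sources used here. Strict counting drops reads in stretches shared by genes.

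Libraries were grouped by their labels. Tests were quasi-likelihood fits in edgeR 4.0.16 (R 4.3.3) with TMM scaling. Genes entered with a mean count of 37 or more, and p-values were adjusted over all of them by the Benjamini-Hochberg method, with a threshold of 0.05. IP was set against input on 4 exon libraries. TE and its change used 8 CDS libraries, with the change as an interaction. RNA and footprint changes used 4 libraries each. SEs were derived from the F statistic. DESeq2 1.42.0 gave size factors for normalized counts, per-mouse TE and enrichment, and an alternative test. Tables and figures used Python 3.11.15, numpy 2.4.6, pandas 2.3.3 and matplotlib 3.10.9. The procedure was run on simulated data in which libraries were independent, with no effect of the mouse, unlike the paired libraries here. P-values rest on the spread between the 2 mice of each group, which edgeR draws toward a spread shared by all genes. For TE and its change, all 8 libraries share 1 estimate of the spread per gene. Depth is given as total counts.

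The mouse letters pair libraries of 1 animal. Differences between the mice of a group correlated between their library kinds at 0.24, 0.23 and 0.56 across genes. Fits with the mouse as a block were an alternative, as were other scalings, filters and count tables and leaving out each mouse. CDS counts with the block were added after seeing the data.

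The members and lists were chosen with earlier results of these data known. All 10 members are named in each comparison. Of the list, the 3 largest rises and 3 largest falls that were called and moved alike in both mice are named for IP and TE, and all called genes for the drug. Tfe3 was named after its values were seen. Atg101, Rubcn and Retreg1 were found by older symbols. Coding lengths were not at hand, so levels were not compared between genes. GRCm38.p6, the build of the positions, is the assembly called mm10.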

Additional observations from a re-analysis of the deposited data

Results flagged for a closer look

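Wdfy3 was the only gene of the autophagy list whose effect differed between library kinds by the interaction test, with a TE change of 0.57 (adjusted p = 0.030, edgeR). Its normalized CDS counts were 1166 and 1217 in RNA of mice A and B and 950.4 and 931 in mice C and D. Its footprint counts were 1801 and 1462 in mice A and B and 1867 and 1946 in mice C and D. The RNA lay lower and the footprints higher after AZD-8055 in both mice, and neither change passed its own test (RNA log2 change −0.36, adjusted p = 0.058; footprints 0.23, adjusted p = 0.34). Without mouse B, C or D the TE change was 0.42, 0.64 and 0.50, and the call was lost (adjusted p = 0.53, 0.13 and 0.36). In each of these fits 1 drug or vehicle arm held a single mouse. The call was kept without mouse A (0.029), with the mouse as a block (0.0021), with DESeq2 (0.0030), and under the other filters and scalings run (adjusted p between 0.0099 and 0.034). Groups of 2 mice were too small for a test of single outlying libraries.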

How the results depend on the processing

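Each group held 2 mice, and Atg5, Atg7 and Becn1 had the fewest footprint counts of the members. With a fold over 2 in the call rule, 2 members were higher and 0 lower in IP, against 11.7% and 21.8% of all genes. In TE, 3 members were higher and 1, Becn1, was lower. Shares of all genes are not given for TE under this rule or for the other alternatives. Those counts therefore describe the members only. Under every other alternative run, the counts of called members stayed within 1.5 times the main count. Leaving out a mouse gave 7 to 8 members higher and 1 lower in IP and in TE, and 0 in each drug comparison. These fits leave an arm of 1 library, which is assumed to vary like the other groups. For IP, both arms hold 1 library and the spread comes wholly from RNA-Seq of mice A to D, so that these counts say little about stability. In IP, Map1lc3b was called with DESeq2, with DESeq2 size factors, with no filter, on CDS counts and with the replicate block (log2 change 0.22, adjusted p = 0.0028), and total counts gave −0.062. Without mouse F it also passed, with 1 library in each arm. Becn1 was called on CDS counts with and without the block (0.56), and total counts gave −0.16. The paired fit changed no other member's call, and its p-values lean on the spread shared by all genes. Atg7 lost its IP call with total counts. In TE, Rb1cc1 lost its call with total counts, with no filter and without mouse A, and Atg5 without mouse B. The causes were not tested.

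Drug changes of members, none of them called, changed sign in places. The TE change of Map1lc3b was −0.042 with no filter. The RNA change of Map1lc3a was −0.0017 with total counts and −5.6e-05 at a mean of 200 counts, and that of Atg7 was 0.034 on exon counts. With 1 mouse left out in turn, TE changes ranged from −0.15 to 0.011 for Map1lc3a, from −0.037 to 0.052 for Map1lc3b, from −0.0062 to 0.13 for Sqstm1 and from −0.49 to 0.047 for Atg5. RNA changes ranged from −0.14 to 0.083 for Gabarap, from −0.089 to 0.0059 for Gabarapl2 and from −0.044 to 0.060 for Map1lc3a. They ranged from −0.029 to 0.084 for Sqstm1, from −0.0036 to 0.048 for Becn1 and from −0.23 to 0.030 for Atg5. The footprint change of Map1lc3a ranged from −0.12 to 0.027.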
